A study of Mus musculus with 18 samples.

Results

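The genes that make, sense and remove extracellular ATP and adenosine were examined in sorted liver lymphocytes and macrophages of mice with liver metastases. The 8 genes, taken by symbol, were *Nt5e*, *Entpd1*, *Cd38*, *Adora2a*, *Adora2b*, *Adora3*, *P2rx4* and *P2rx7*, out of 54562 genes listed in either of the deposited count tables. All 8 were listed in both tables, and 6 of them had enough counts to be tested in the lymphocytes and 8 in the macrophages. Young adult C57BL/6J female mice received MC38 cells, a mouse colon adenocarcinoma line, by injection into the spleen, and all libraries came from the livers of such animals.

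The lymphocyte libraries, 12 in all, were sorted as lineage-negative CD45+ NKp46+ cells from pools of 6 to 8 samples. Metastasis-free liver (MFL) gave NK cells, sorted as CD49a- CD49b+, and ILC1, sorted as CD49a+ CD49b-. Liver metastasis (LM) gave NK cells without CD49a, which carry CD49b, and NK cells positive for both, called LM CD49a- and LM CD49a+ NK cells. Each population had 3 libraries. The titles of the LM CD49a+ NK libraries call them ILC1, and their population label was followed here. LM was digested with an enzyme and MFL was pressed through a filter, so the site and the dissociation cannot be told apart. Metastasis-associated macrophages (MAMs), lineage-negative CD45+ CD11b+, were sorted from LM as F4/80hi and F4/80int cells (F4/80low in the labels), with 3 libraries each. The MAM libraries were made from poly(A) RNA and the lymphocyte libraries from total RNA, so levels were not compared between these tables.

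Cells release ATP when they are stressed or die, and it acts on the ion channels P2X4 and P2X7, encoded by *P2rx4* and *P2rx7*, as a danger signal. CD39, encoded by *Entpd1*, takes ATP and ADP to AMP, and CD73, encoded by *Nt5e*, takes AMP to adenosine, which dampens NK cells and macrophages through the cAMP-raising receptors encoded by *Adora2a* and *Adora2b*, while that of *Adora3* lowers cAMP. CD38 (*Cd38*) breaks down NAD outside the cell and is the start of another route to AMP.

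Total counts ranged from 8795721 to 14386834 per lymphocyte library and from 21278959 to 32267015 per MAM library, so that a level of 1 CPM (counts scaled to the library size by TMM) stood for 8.98 to 13.7 counts and 22.2 to 30.8 counts, respectively. *Itga1*, which encodes CD49a, was at 134 ± 26.5 CPM (SD, n = 3) in the LM CD49a+ population and 663 ± 17.1 in MFL ILC1, against 11.4 ± 5.62 in LM CD49a- NK cells and 11.5 ± 7.46 in MFL NK cells. *Adgre1*, which encodes F4/80, lay between 806 and 1167 CPM in F4/80hi and between 124 and 160 CPM in F4/80int MAMs. Fewer cells of a type and less RNA per cell cannot be told apart in bulk samples.

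On GRCm39, *Nt5e* lies on chromosome 9 from 88209089 to 88254146, *Entpd1* on chromosome 19 from 40600810 to 40731585, *Adora2a* on chromosome 10 from 75152560 to 75170628, *Adora2b* on chromosome 11 from 62139804 to 62157279 and *Adora3* on chromosome 3 from 105778174 to 105816242. *P2rx7* (122781942 to 122830400) and *P2rx4* (122845541 to 122867803) are neighbors on chromosome 5, which also holds *Cd38* (44025875 to 44069717). All 8 genes are on the plus strand. *Adora3* shares its strand and part of its span with *Tmigd3*, so reads of this locus could be split between them. *P2rx7* overlaps antisense RNA genes, and whether counting used the strand is not given in the sources used here.

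RefSeq promoter windows (GRCm38.p6) were found for 7 of the 8 members, and *Adora2a* had no entry. The sequences shown are those of *P2rx7*, which had the largest difference between lymphocyte populations, of its chromosomal neighbor *P2rx4*, which was not called in any lymphocyte comparison, and of *Adora2b* and *Adora3*, which were both lower in F4/80hi MAMs. Each begins 250 bases before a RefSeq start. Those of *P2rx7*, *P2rx4* and *Adora2b* stop before the first annotated exon, while that of *Adora3* lies inside the span of the gene and holds no annotated exon. Each was matched once to GRCm39, at chr5:122781740-122781941, chr5:122845357-122845540, chr11:62139560-62139803 and chr3:105811487-105811736, plus strand. Capitals mark matches, on either strand, to any of 6 motifs.
P2rx7: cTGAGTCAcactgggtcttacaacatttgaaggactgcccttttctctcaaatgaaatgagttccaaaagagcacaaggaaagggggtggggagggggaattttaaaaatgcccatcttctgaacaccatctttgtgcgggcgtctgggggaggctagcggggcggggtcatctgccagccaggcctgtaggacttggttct
P2rx4: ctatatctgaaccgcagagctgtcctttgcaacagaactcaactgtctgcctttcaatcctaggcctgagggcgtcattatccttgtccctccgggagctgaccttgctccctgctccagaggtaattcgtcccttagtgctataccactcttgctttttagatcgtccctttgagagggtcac
Adora2b: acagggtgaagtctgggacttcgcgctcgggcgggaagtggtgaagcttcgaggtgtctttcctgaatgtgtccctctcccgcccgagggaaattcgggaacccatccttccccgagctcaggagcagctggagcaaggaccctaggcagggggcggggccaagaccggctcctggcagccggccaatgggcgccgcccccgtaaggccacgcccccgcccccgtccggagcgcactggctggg
Adora3: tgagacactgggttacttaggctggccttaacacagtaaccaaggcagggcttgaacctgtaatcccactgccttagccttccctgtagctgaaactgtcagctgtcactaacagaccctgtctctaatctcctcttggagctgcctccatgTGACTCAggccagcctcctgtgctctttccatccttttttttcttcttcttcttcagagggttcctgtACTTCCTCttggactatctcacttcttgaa

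The motifs searched, in the 250 bases before the start, were TGAGTCA (AP-1), TGACGTCA (the cAMP response element), ACGTG (the core of the hypoxia response element), TGTGGT (RUNX), AGGTGTGA (T-box) and GAGGAAGT (PU.1). *P2rx7* held 1 AP-1 match, starting 249 bases before its start, and *Adora3* held 1 AP-1 match at 98 bases and 1 PU.1 match at 30 bases. Among 32841 promoters of the same length, 4.46% held an AP-1, 2.44% a PU.1, 1.55% a cAMP response element, 16.6% a hypoxia element core, 14% a RUNX and 1.12% a T-box match. No match to these letters was found in the windows of the other 5 members or at the second RefSeq starts of *P2rx7* and *Entpd1*. These matches are descriptions of the letters and not evidence of binding.

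The first question was which of these genes set LM CD49a+ NK cells apart from the other lymphocytes. *Nt5e* was highest there. It was at 81.1, 52.4 and 96.6 CPM in the LM CD49a+ NK libraries, at 35.8, 17.8 and 24.0 in LM CD49a- NK cells, at 46.0, 22.8 and 27.9 in MFL ILC1 and at 17.4, 14.2 and 11.01 in MFL NK cells. All 3 LM CD49a+ NK libraries lay above all 9 libraries of the other populations, LM CD49a- NK cells and MFL ILC1 overlapped, and both lay above MFL NK cells.

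Against MFL NK cells, *Nt5e* in LM CD49a+ NK cells was higher by a log2 fold change of 2.43 (SE 0.48, 5.39-fold, adjusted p = 0.0262, edgeR with Benjamini-Hochberg adjustment over all tested genes). It was the 1 member called of 6 tested in this comparison, at an adjusted p under 0.1, where 0.647% of all genes were called and 0.427% were called higher. The groups did not overlap for 2 of the 6 members, *Nt5e* and *P2rx4*, and for 20.1% of all genes. The study had placed *Nt5e* in its list of LM CD49a+ NK genes using these libraries, so its direction here is not independent evidence. By flow cytometry, the study also reported more CD73 protein on the surface of LM CD49a+ than of LM CD49a- NK cells. That measured protein and concerned another pair of populations than this comparison. The call was lost without MFL NK replicate 1 (adjusted p = 0.129), 2 (0.156) or 3 (0.225) and without LM CD49a+ NK replicate 1 (0.102) or 3 (0.119), with a log2 fold change between 2.23 and 2.64 over all fits that left out 1 library.

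The other differences of *Nt5e* did not pass the test. The LM CD49a+ population exceeded the LM CD49a- one by 1.57 on the log2 scale (SE 0.46, adjusted p = 0.283) and MFL ILC1 by 1.25 (SE 0.46, adjusted p = 0.213). MFL ILC1 exceeded MFL NK cells by 1.18 (SE 0.46, adjusted p = 0.345) and LM CD49a- NK cells exceeded them by 0.86 (SE 0.46, adjusted p = 0.768). Other tools called 3 of these differences. The excess over LM CD49a- NK cells was called by DESeq2's Wald test (adjusted p = 0.0467), that over MFL ILC1 by limma-voom (adjusted p = 0.0104) and DESeq2 (adjusted p = 0.0995), and that of MFL ILC1 over MFL NK cells by limma-voom (adjusted p = 0.0255). The groups did not overlap in any of these comparisons except LM CD49a- NK cells against MFL ILC1, which was not tested.

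**Figure D1:**
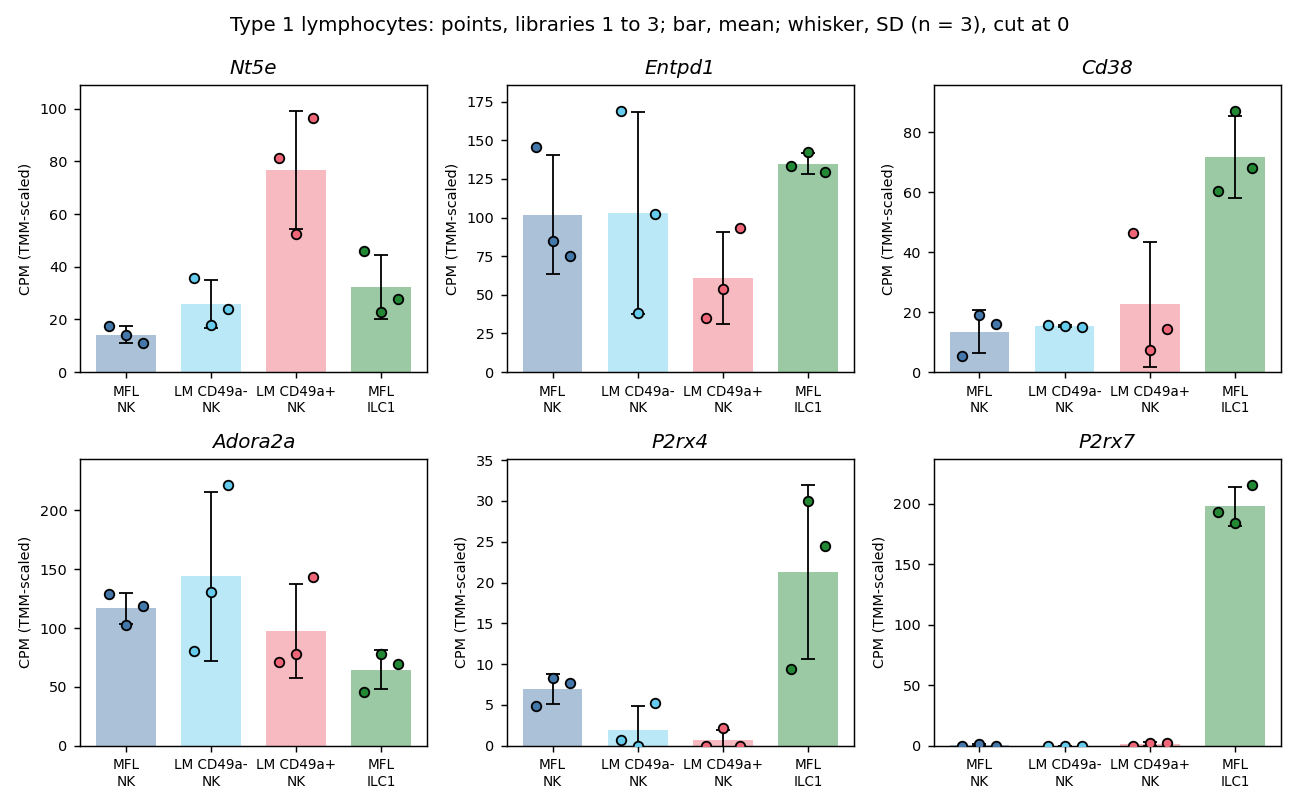
CPM (y axis, from 0) of the 6 members tested in the lymphocytes, by population (x axis). Points are single libraries, bars are means and whiskers are SDs (n = 3, cut at 0); *Nt5e* reaches its highest levels, 52.4 to 96.6 CPM, in LM CD49a+ NK cells, and *P2rx7* is at 184 to 216 CPM in MFL ILC1 and at no more than 2.42 CPM in the 9 other libraries.

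Markers of other cells differed along with *Nt5e*. The T cell list, with 5 of its 10 genes above 3 counts in at least 1 library, summed to 212 to 258 CPM in LM CD49a+ NK cells and to 95.9 to 173 CPM in MFL NK cells, with *Cd4*, *Cd8a*, *Cd8b1* and *Cd5* at 0 in the former. The endothelial list summed to 222 to 284 CPM against 86.5 to 144 CPM, with 2 of its 10 genes above 3 counts, and *Cdh5*, *Kdr*, *Tek* and *Stab2* were at 0 in LM CD49a+ NK cells. The regulatory T cell list summed to 120 to 248 CPM against 48.2 to 65.2 CPM, with *Foxp3* at 0 in LM CD49a+ NK cells and 0 of its 4 tested genes called. The B cell list summed to 117 to 121 CPM against 30.4 to 73.3 CPM, with 1 of its 9 genes above 3 counts (*Ighm*) and *Cd79a* and *Cd79b* at 0. The tumor epithelial list summed to 30.2 to 51.5 CPM against 8.25 to 13.3 CPM, with *Krt8*, *Krt18* and *Krt19* at 0 and 1 of its 3 tested genes called higher. The dendritic cell list was lower in LM CD49a+ NK cells, at 406 to 429 CPM against 456 to 508 CPM. Also lower there was the hepatocyte list, at 0 to 13.1 CPM against 19.3 to 123 CPM in MFL NK cells. The Kupffer cell list was at 0 in LM CD49a+ NK cells and at 1.17 CPM or more in each MFL NK library. Regulatory T cells and B cells are known to carry CD73, and the part of all these cells in the *Nt5e* level was not tested.

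*Entpd1*, the gene of the enzyme before CD73 in the pathway, did not follow *Nt5e*. It was at 35.0, 53.8 and 93.5 CPM in LM CD49a+ NK cells, 169, 38.2 and 102 in the LM CD49a- population, 146, 84.5 and 75.2 in MFL NK cells and 133, 142 and 129 in MFL ILC1. MFL ILC1 had the highest mean (135 ± 6.76 CPM, SD, n = 3) and lay above all LM CD49a+ NK libraries, whereas the 3 NK populations overlapped one another.

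No difference of *Entpd1* passed edgeR's test. The largest of the 5 between populations, LM CD49a+ NK cells against MFL ILC1, was -1.15 on the log2 scale (SE 0.44, adjusted p = 0.237). It passed without the filter on low counts (adjusted p = 0.0234), by limma-voom (adjusted p = 0.0528) and without LM CD49a- NK replicate 2 (adjusted p = 0.0891), the library with the lowest value of its group. MFL ILC1 against MFL NK cells passed by limma-voom (log2 fold change 0.70, adjusted p = 0.00530). Against LM CD49a- NK cells the value was -0.76 (SE 0.44, adjusted p = 0.519) and against MFL NK cells -0.75 (SE 0.44, adjusted p = 0.684). Per kilobase of exon, the mean level of *Entpd1* in LM CD49a+ NK cells was 8.53 CPM per kb and that of *Nt5e* 8.75, while in MFL NK cells *Entpd1* was at 14.3 and *Nt5e* at 1.62 CPM per kb. On that scale the genes of the successive enzymes were near each other in LM CD49a+ NK cells and far apart in MFL NK cells.

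*Cd38* was highest in MFL ILC1. It was at 60.4, 87.1 and 68.0 CPM in MFL ILC1, at 5.47, 18.9 and 16.1 in MFL NK cells, at 15.8, 15.3 and 15.0 in the LM CD49a- NK libraries and at 46.4, 7.20 and 14.2 in LM CD49a+ NK cells. All MFL ILC1 libraries exceeded all NK libraries, and the 3 NK populations overlapped, with LM CD49a+ NK replicate 1 standing above the other NK libraries.

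*Cd38* exceeded its level in MFL NK cells by 2.41 on the log2 scale in MFL ILC1 (SE 0.65, 5.33-fold, adjusted p = 0.0693). This call was lost when any 1 library of the pair was left out, without MFL NK replicate 1 (adjusted p = 0.339), 2 (0.135) or 3 (0.191) or MFL ILC1 replicate 1 (0.149), 2 (0.288) or 3 (0.193). LM CD49a+ NK cells were below MFL ILC1 by a log2 fold change of -1.67 (SE 0.64, adjusted p = 0.233), which passed without LM CD49a+ NK replicate 1 (-2.74, adjusted p = 0.0457) and by limma-voom (-2.42, adjusted p = 0.0342).

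The adenosine receptors were represented in the lymphocytes by *Adora2a*. It was at 129, 103 and 119 CPM in MFL NK cells, at 80.2, 130 and 222 in LM CD49a- NK cells, at 71.5, 77.6 and 143 in LM CD49a+ NK cells and at 46.1, 77.8 and 69.5 in MFL ILC1. The MFL ILC1 libraries lay below the MFL NK libraries and overlapped with the LM CD49a+ NK libraries. In order of mean level, LM CD49a- NK cells (144 ± 71.7 CPM, SD, n = 3), MFL NK cells (117 ± 13.2), the LM CD49a+ population (97.3 ± 39.6) and MFL ILC1 (64.5 ± 16.4), each neighbor in the order overlapped with the next.

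*Adora2a* differed between MFL ILC1 and MFL NK cells by -0.85 on the log2 scale (SE 0.36, adjusted p = 0.438), which did not pass the test in the fit of the 4 populations. A fit of only these populations gave an adjusted p of 0.0497 and limma-voom one of 0.0259. The value was -0.57 between the LM NK populations (SE 0.36, adjusted p = 0.563).

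*Adora2b* and *Adora3* were at 0 counts in 11 of the 12 lymphocyte libraries, which allows a level of up to 0.220 to 0.334 CPM in each (3 counts; counting error only). The remaining library, MFL ILC1 replicate 2, held 2 counts of *Adora2b* and 5 of *Adora3*. The macrophage list summed to 149 CPM in that library, with 12 of its 14 genes above 3 counts, against 54.2 and 24.7 CPM in MFL ILC1 replicates 1 and 3. Per kilobase, *Adora2a* was at 12.3 to 27.4 CPM per kb in the means of the 4 populations.

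*P2rx7* gave the largest difference of the members in the lymphocytes. It had 2281, 2514 and 2277 counts in the MFL ILC1 libraries (194, 184 and 216 CPM), 0, 20 and 0 counts in MFL NK, 0, 0 and 2 in the LM CD49a- population and 0, 31 and 23 in the LM CD49a+ one. MFL ILC1 stood apart from every NK library, including the CD49a+ NK cells of metastases that share CD49a with them.

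Against MFL NK cells, *P2rx7* in MFL ILC1 was higher by 8.60 on the log2 scale (SE 1.24, adjusted p = 0.000387), and LM CD49a+ NK cells were below MFL ILC1 by -6.95 (SE 1.13, adjusted p = 0.00186). Since 2 of the MFL NK libraries and 1 of the LM CD49a+ NK libraries were at 0, the size of these fitted values depends on how zeros are handled, and between MFL ILC1 and MFL NK cells it ranged from 8.02 to 14.1 with 1 library left out. Both calls held in all 18 alternatives. With *Cd38*, *P2rx7* made 2 of 6 members called in MFL ILC1 against MFL NK cells, where 3.06% of all genes were called and 1.38% were called higher, and it was the 1 called of 6 for LM CD49a+ NK cells against MFL ILC1, where 3.58% were called and 1.29% were called lower. The groups did not overlap for 5 of 6 members in each of these comparisons, against 25.3% and 23.2% of all genes.

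The counts of *P2rx7* in LM CD49a+ NK replicates 2 and 3, at 2.42 and 2.29 CPM, exceeded the 0 to 0.158 CPM of LM CD49a- NK cells, but replicate 1 had none, and the groups overlapped at 0. The difference did not pass the test (log2 fold change 4.43, SE 1.47, adjusted p = 0.340), although it did without the filter on low counts (adjusted p = 6.25e-06). None of the 6 members was called by edgeR between these populations, where 0.14% of all genes were called and 2 members, *Nt5e* and *P2rx7*, had an unadjusted p under 0.05. DESeq2 called 1 member there, *Nt5e*, and limma-voom 0. The groups did not overlap for 1 of 6 members, *Nt5e*, and for 9.82% of all genes.

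*P2rx4* was highest in MFL ILC1 and lower in the NK populations. It had 111, 410 and 259 counts in MFL ILC1 (9.42, 30.0 and 24.5 CPM), 59, 113 and 105 in MFL NK cells, 6, 0 and 67 in the LM CD49a- population and 0, 28 and 0 in the LM CD49a+ one. MFL ILC1 lay above MFL NK cells, and the 3 LM CD49a+ NK libraries lay below both.

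No difference of *P2rx4* passed edgeR's test. For LM CD49a+ NK cells against MFL ILC1 it was -4.83 on the log2 scale (SE 1.92, adjusted p = 0.256), and it passed without LM CD49a+ NK replicate 2 (adjusted p = 0.0516), by DESeq2 (adjusted p = 0.0318), by limma-voom (adjusted p = 0.0424) and without the filter on low counts (adjusted p = 0.0818). The excess of MFL ILC1 over MFL NK cells was called by limma-voom (log2 fold change 1.72, adjusted p = 0.00282). In MFL ILC1 replicates 1, 2 and 3, *P2rx4* was at 9.42, 30.0 and 24.5 CPM and the macrophage list summed to 54.2, 149 and 24.7 CPM. Replicate 2 thus was highest in both, while replicate 3 had the lowest list sum and replicate 1 the lowest *P2rx4*. Per kilobase, *P2rx7* exceeded its neighbor in MFL ILC1, at 20.3 ± 1.67 CPM per kb (SD, n = 3) against 2.74 ± 1.37 for *P2rx4*, whereas in MFL NK cells *P2rx4* was at 0.892 ± 0.240 and *P2rx7* at 0.0503 ± 0.0872 CPM per kb.

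Markers of other cells were also higher in the MFL ILC1 libraries. The T cell list summed to 621 to 1035 CPM, against 95.9 to 173 CPM in MFL NK cells, with 7 to 9 of its 10 genes above 3 counts per library, *Cd3g* at 224 to 668 CPM and *Cd3e* at 0 to 0.366 CPM. The neutrophil list summed to 107 to 155 CPM against 0 to 1.33 CPM. Of its 9 genes, 1, 2 and 1 were above 3 counts in MFL ILC1 replicates 1, 2 and 3. The regulatory T cell list summed to 162 to 206 CPM against 48.2 to 65.2 CPM, with *Foxp3* at 0 in MFL ILC1, and the B cell list to 138 to 184 CPM against 30.4 to 73.3 CPM, with *Cd79a* and *Ms4a1* at 0. The dendritic cell list summed to 660 to 808 CPM against 456 to 508 CPM, with *Clec9a* and *Cd209a* at 0, and the tumor epithelial list to 67.2 to 104 CPM against 8.25 to 13.3 CPM, with 1 of its 3 tested genes called higher. The macrophage list overlapped between the populations, at 24.7 to 149 CPM against 14.9 to 50.0 CPM, and *Adgre1* was at no more than 2.42 CPM in MFL ILC1. The classical monocyte list was lower in MFL ILC1, at 144 to 280 CPM against 1158 to 1426 CPM. The part of all these cells in the levels of the members in MFL ILC1 was not tested.

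**Figure D2:**
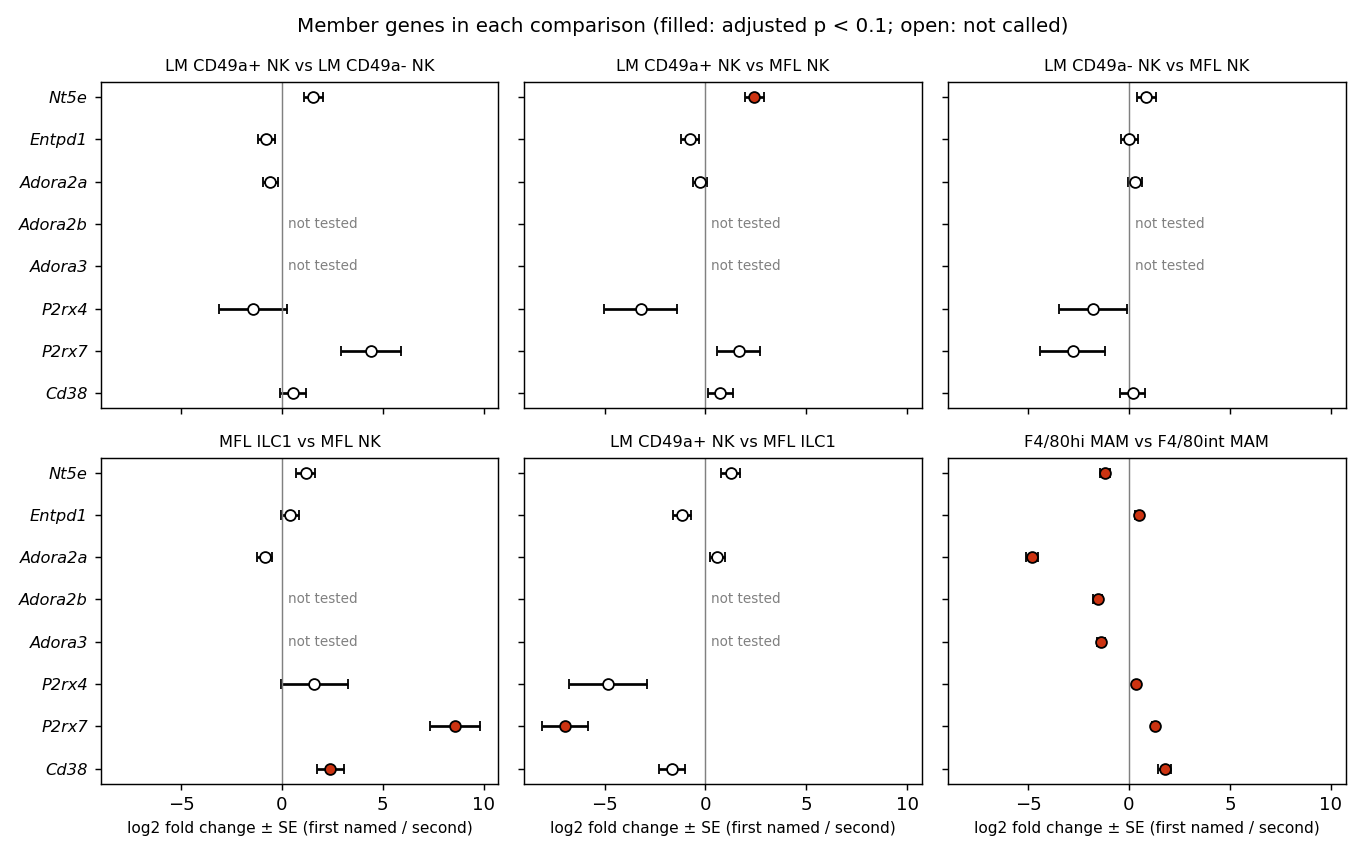
Log2 fold changes (x axis) of the 8 members (y axis) in 5 lymphocyte comparisons and in MAMs; whiskers are SEs and filled points have an adjusted p under 0.1. The called members are *Nt5e* between LM CD49a+ and MFL NK cells, *P2rx7* and *Cd38* between MFL ILC1 and MFL NK cells, *P2rx7* for LM CD49a+ NK cells against MFL ILC1, and all 8 in MAMs.

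Between LM CD49a- and MFL NK cells, none of the 6 members was called by edgeR and none had an unadjusted p under 0.05, where 0.0736% of all genes were called. DESeq2 and limma-voom called 0 members there as well. The groups did not overlap for 1 of the 6, *Nt5e*, and for 16.2% of all genes. An interaction term asked whether the CD49a+ and CD49a- cells of LM differed by as much as MFL ILC1 and MFL NK cells. It was called for 0 of 6 members, with 0 at an unadjusted p under 0.05 and 0 by DESeq2 or limma-voom, where 1.03% of all genes were called. The interaction was 0.39 on the log2 scale for *Nt5e* (SE 0.64, adjusted p = 0.960), -1.86 for *Cd38* (SE 0.89, adjusted p = 0.580) and -4.18 for *P2rx7* (SE 2.82, adjusted p = 0.769), so it was not shown that the difference tied to CD49a in *P2rx7* or *Cd38* was unequal between the sites.

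The genes whose levels most resembled each member over the 12 lymphocyte libraries were taken from 9100 protein-coding genes by Pearson's r of log2 CPM. They were *Cd274* (r = 0.893) and *Gpi1* (0.875) for *Nt5e*, *Zfp516* (0.928) and *N4bp2l1* (0.923) for *Entpd1*, *Kdm7a* (0.965) and *Zswim6* (0.944) for *Adora2a*, *Avil* (0.949) and *Pdhx* (0.948) for *P2rx4*, *Cxcr6* (0.986) and *Zmat4* (0.968) for *P2rx7*, and *Atp8a2* (0.931) and *Rflnb* (0.928) for *Cd38*. *Cd274* encodes the checkpoint ligand PD-L1, and *Cxcr6* encodes a chemokine receptor of liver-resident lymphocytes. The libraries fall into 4 populations, so these values describe the populations as much as the libraries. Among the members, r was 0.71 between *P2rx7* and *Cd38* and -0.59 between *P2rx7* and *Adora2a*.

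Of the other genes of the pathway in the lymphocytes, the concentrative nucleoside carrier *Slc28a2*, which brings adenosine into the cell, was lower in LM CD49a+ NK cells. It was at 36.8 ± 20.1 CPM (SD, n = 3) there, at 139 ± 17.8 in LM CD49a- NK cells, at 111 ± 19.1 in MFL NK cells and at 182 ± 20.2 in MFL ILC1, with no overlap with any of them. The log2 fold change was -1.92 against LM CD49a- NK cells (adjusted p = 0.0504), -1.59 against MFL NK cells (adjusted p = 0.0526) and -2.30 against MFL ILC1 (adjusted p = 0.000966). The first was lost in 4 of 18 alternatives. These were limma-voom, a fit of the compared populations alone, and fits without LM CD49a- NK replicate 1 or LM CD49a+ NK replicate 1. The adjusted p of this call was up to 0.922 over all alternatives and up to 0.168 with 1 library left out. The second was lost in 5, among them without any 1 MFL NK library or LM CD49a+ NK replicate 1 (adjusted p up to 0.239), and the third in none. *Slc28a2* has a near-identical copy next to it, so reads could be split between them.

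Among 19 tested genes of cAMP signaling downstream of adenosine receptors, LM CD49a+ NK cells had 2 called above MFL NK cells and 0 below, where 0.427% of all genes were called higher. *Pde4d*, a cAMP-degrading enzyme, was at 52.1 ± 18.7 CPM against 5.78 ± 1.94 (log2 fold change 3.17, adjusted p = 0.0662), and *Akap13*, an anchor of protein kinase A, at 1371 ± 325 against 697 ± 45.04 CPM (0.98, adjusted p = 0.0570). Both calls were lost without any 1 MFL NK library and without LM CD49a+ NK replicate 1 or 3, with an adjusted p of up to 0.357 and 0.342, and that of *Akap13* also without MFL ILC1 replicate 2 and in a fit of the compared populations alone. The list's median log2 fold change was 0.19, and that of all genes tested was -0.04.

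In MFL ILC1 against MFL NK cells, 2 of the 19 cAMP genes were higher and 0 lower, where 1.38% of all genes were called higher. These were *Pde7a* (303 ± 68.5 against 123 ± 12.9 CPM, log2 fold change 1.31, adjusted p = 0.00331) and *Pde3b* (371 ± 24.2 against 203 ± 10.1 CPM, 0.87, adjusted p = 0.0238), both cAMP-degrading enzymes. The latter call was lost without MFL NK replicate 2 or 3 or MFL ILC1 replicate 2 (adjusted p up to 0.159). The median of this list was 0.06 and that of all genes 0.01.

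The acid phosphatase gene *Acp3*, whose product can also make adenosine from AMP, was 1 of 4 tested genes of the other ecto-nucleotidases. It was the 1 called between MFL ILC1 and MFL NK cells, where 1.38% of all genes were called higher. *Acp3* was at 116 ± 9.26 CPM in MFL ILC1 against 6.13 ± 1.12 in MFL NK cells (difference 4.24 on the log2 scale, adjusted p = 0.0173). *Art2b*, an ADP-ribosyltransferase that can gate P2X7 in the presence of NAD, was the 1 called of 2 other tested genes of NAD and ADP-ribose. It was at 46.8 ± 22.9 CPM in MFL ILC1 and at 0.902 ± 0.288 in MFL NK cells (5.68, adjusted p = 0.0519). *Art2b* thus was higher in the population that had *P2rx7*. Its call was lost without any MFL NK library or without MFL ILC1 replicate 2 or 3 (adjusted p up to 0.329), and its reads can be split with those of *Art2a*.

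LM CD49a+ NK cells differed from MFL ILC1 in 9 of the 51 tested genes of all 7 pathway lists, where 3.58% of all genes were called. *Art2b*, *Slc28a2*, *Pde7a* and *Adcy7*, an adenylyl cyclase, were lower, and *Pde4d* (5.61, adjusted p = 0.000592), the cAMP-responsive repressor *Crem* (2.47, adjusted p = 0.0319), the inflammasome kinase *Nek7* (1.03, adjusted p = 0.0875), *P2ry14*, a receptor for UDP-sugars (4.26, adjusted p = 0.0634), and *P2ry10*, whose product binds lysophosphatidylserine (1.505, adjusted p = 0.0539), were higher. The calls of *Slc28a2*, *Pde7a* (-1.73, adjusted p = 0.000388) and *Pde4d* held in all 18 alternatives. Those of the other 6 were lost without at least 1 library, with adjusted p of up to 0.140 for *Art2b*, 0.241 for *Adcy7*, 0.214 for *Crem*, 0.349 for *Nek7*, 0.245 for *P2ry14* and 0.249 for *P2ry10*.

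The second question was how the 8 genes divided between the MAM subsets. All 8 were called, 4 higher and 4 lower in F4/80hi MAMs, in a comparison in which 54.9% of all genes were called, 27.8% higher and 27.1% lower. The subsets did not overlap for 7 of 8 members and for 58.4% of all genes, so a call by itself says little about these genes, and their sizes are given. The adenosine receptors and *Nt5e* were lower and the P2X receptors, *Cd38* and *Entpd1* were higher in F4/80hi MAMs.

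*Adora2a* differed most. It was at 34.7, 26.0 and 31.5 CPM in F4/80int MAMs and at 1.85, 0.815 and 0.746 CPM in F4/80hi MAMs, where it rested on 41, 23 and 23 counts. The log2 fold change was -4.80 (SE 0.30, adjusted p = 9.39e-06), and the subsets were far from overlapping.

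*Adora2b* was at 11.985, 14.3 and 12.5 CPM in F4/80int MAMs and at 4.86, 5.42 and 2.92 in F4/80hi MAMs, a log2 fold change of -1.56 (SE 0.23, adjusted p = 0.000821). *Adora3* was at 7.29, 6.83 and 7.26 CPM in F4/80int MAMs and at 2.61, 2.34 and 3.18 in F4/80hi MAMs, a log2 fold change of -1.39 (SE 0.19, adjusted p = 0.000485). Neither overlapped. All 3 adenosine receptor members thus were lower in F4/80hi MAMs, by unequal sizes. Per kilobase, *Adora2b* had the highest mean of them in both subsets, at 6.97 ± 0.654 CPM per kb (SD, n = 3) in F4/80int and 2.38 ± 0.709 in F4/80hi MAMs, and *Adora2a* was at 5.84 ± 0.834 and 0.216 ± 0.117.

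*Nt5e* was at 54.3, 43.6 and 96.9 CPM in F4/80int MAMs and at 27.3, 28.1 and 29.4 in F4/80hi MAMs (log2 fold change -1.20, SE 0.26, adjusted p = 0.00580). F4/80int replicate 3 stood above the other libraries of its subset, and without it the value was -0.79 and remained called. *Entpd1* was at 124, 101 and 115 CPM in F4/80int MAMs and at 182, 112 and 180 in F4/80hi MAMs (0.47, SE 0.18, adjusted p = 0.0603). Here the subsets overlapped through F4/80hi replicate 2.

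The *Entpd1* call was lost without F4/80int replicate 2 (adjusted p = 0.165) or 3 (0.113) and without F4/80hi replicate 1 (0.185) or 3 (0.167). The mean per-kilobase level of *Entpd1* was 15.9 ± 1.58 CPM per kb in F4/80int and 22.2 ± 5.60 in F4/80hi MAMs, above that of *Nt5e*, at 7.41 ± 3.22 and 3.22 ± 0.119.

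*P2rx7* was at 55.6, 62.0 and 57.3 CPM in F4/80int MAMs and at 137, 114 and 178 in F4/80hi MAMs (log2 fold change 1.29, SE 0.15, adjusted p = 0.000261). *Cd38* was at 15.5, 12.8 and 25.7 CPM in F4/80int MAMs and at 66.4, 39.5 and 76.8 in F4/80hi MAMs (1.76, SE 0.31, adjusted p = 0.00185). Neither overlapped between the subsets.

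*P2rx4* differed by less. It was at 108, 103 and 112 CPM in F4/80int MAMs and at 139, 118 and 161 in F4/80hi MAMs (0.37, SE 0.12, adjusted p = 0.0294), without overlap. Per kilobase, *P2rx4* (13.8 ± 0.547 CPM per kb) exceeded *P2rx7* (5.97 ± 0.337) in F4/80int MAMs, while in F4/80hi MAMs *P2rx4* was at 17.9 ± 2.77 and *P2rx7* at 14.6 ± 3.33.

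**Figure D3:**
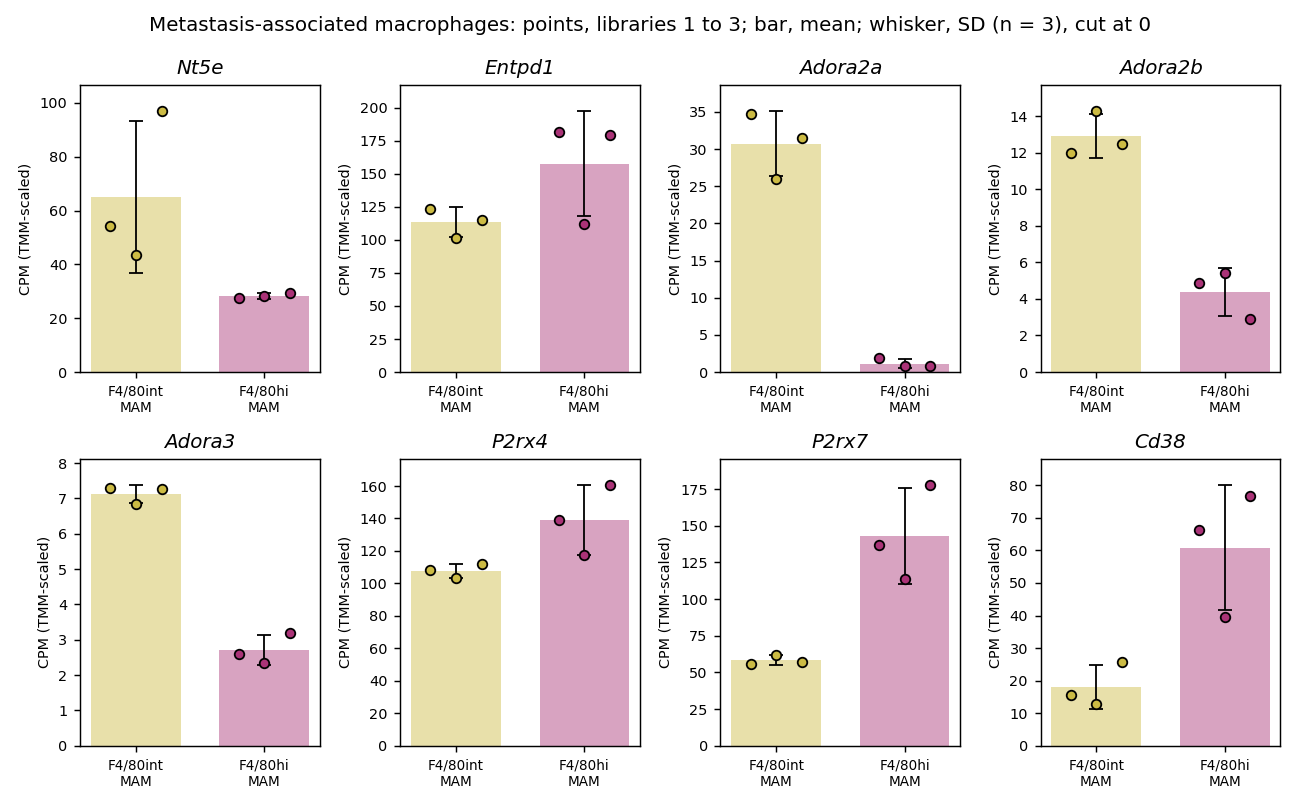
CPM (y axis, from 0) of the 8 members in F4/80int and F4/80hi MAMs (x axis). Points are single libraries, bars are means and whiskers are SDs (n = 3, cut at 0); the subsets overlap only for *Entpd1*, and *Adora2a* falls from 26.0 to 34.7 CPM in F4/80int to 0.746 to 1.85 CPM in F4/80hi MAMs.

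Markers of other cells differed between the MAM subsets along with these genes. The dendritic cell list summed to 1161 to 1650 CPM in F4/80int and to 94.0 to 162 CPM in F4/80hi MAMs, and its *Flt3* and *Cd209a* were at 72.3 to 132 and at 110 to 141 CPM against 1.72 to 2.61 and 0.811 to 2.55 CPM. The classical monocyte list summed to 2144 to 2427 CPM against 473 to 594 CPM, and the neutrophil list to 364 to 605 CPM against 80.4 to 115 CPM. The tumor epithelial list, with 3 of its 7 genes in the table, summed to 198 to 284 CPM against 9.63 to 12.8 CPM. Among lymphoid lists, that of regulatory T cells summed to 40.0 to 71.9 CPM in F4/80int and 5.53 to 9.32 CPM in F4/80hi MAMs, with 5 of 5 genes called lower in the latter. That of ILC1 summed to 126 to 141 against 48.2 to 71.8 CPM. The NK cell list overlapped in sum, but 7 of its 9 genes in the table were called lower in F4/80hi MAMs, with a median log2 fold change of -3.03. In other lists, 3 of 10 T cell genes were called lower and 2 of 8 B cell genes higher. In the other direction, the macrophage list summed to 12800 to 16652 CPM in F4/80int and to 29277 to 40414 CPM in F4/80hi MAMs, the Kupffer cell list to 15.2 to 20.9 against 73.5 to 105 CPM, the stellate cell and fibroblast list to 46.2 to 153 against 261 to 559 CPM and the erythroid cell and platelet list to 10.2 to 92.3 against 115 to 148 CPM. The part of these cells in the differences of the 8 genes was not tested.

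The wider pathway was divided between the MAM subsets as well, with 46 of the 63 genes of its 7 lists called, 22 higher and 24 lower in F4/80hi MAMs. The counts that follow stand beside the 54.9% of all genes called, 27.8% higher and 27.1% lower, so they say little by themselves. Of the 9 other adenosine and P2 receptor genes in the table, 3 were higher and 4 lower in F4/80hi MAMs. The ADP receptors *P2ry12* (101 ± 19.1 against 17.9 ± 2.10 CPM, log2 fold change 2.49, adjusted p = 1.04e-05) and *P2ry13* (69.3 ± 12.6 against 17.1 ± 4.12 CPM, 2.02, adjusted p = 8.88e-05) and the UDP receptor *P2ry6* (0.65, adjusted p = 0.00134) were higher. The channel *P2rx5* (8.32 ± 2.64 against 0.235 ± 0.0788 CPM in F4/80hi, -5.12, adjusted p = 1.97e-05), *P2ry10* (-5.10, adjusted p = 9.57e-06) and the ADP receptor *P2ry1* (-1.75, adjusted p = 0.00175) were among the lower ones. ADP receptors thus stood on both sides.

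Of 8 genes for the removal and transport of adenosine, 4 were higher and 1 was lower in F4/80hi MAMs, with a median log2 fold change of 0.37 against 0.01 over all genes. Adenosine kinase, *Adk* (23.5 ± 2.62 against 10.6 ± 0.901 CPM, log2 fold change 1.15, adjusted p = 0.000140), adenosine deaminase, *Ada* (13.9 ± 0.863 against 7.04 ± 0.716 CPM, 0.97, adjusted p = 0.000572), the carrier *Slc28a2* (1.05, adjusted p = 0.00355) and the equilibrative carrier *Slc29a1* (0.61, adjusted p = 0.000526) were higher. *Dpp4*, the gene of the adenosine deaminase anchor CD26, was lower, at 2.98 ± 0.842 against 115 ± 24.6 CPM (-5.29, adjusted p = 3.31e-06). These 5 calls held in all 11 alternatives.

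Of the 5 other ecto-nucleotidase and phosphatase genes in the table, 2 were higher and 2 lower. *Enpp1*, which splits ATP to AMP, was higher (37.9 ± 3.78 against 22.6 ± 1.98 CPM, log2 fold change 0.75, adjusted p = 0.000736), and *Acp3* was lower, from 2.06 ± 0.369 to 0.206 ± 0.0467 CPM (-3.28, adjusted p = 0.000160). Of 3 other genes of NAD and ADP-ribose, *Bst1*, the neighbor and relative of *Cd38*, was lower (25.2 ± 6.53 against 55.7 ± 23.6 CPM, -1.15, adjusted p = 0.0151), and *Trpm2*, an ADP-ribose-gated channel, was higher (0.67, adjusted p = 0.00353). *Cd38* and *Bst1* thus moved in opposite directions.

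Of 7 ATP release channels and carriers, 2 were higher and 2 lower, with connexin 43, *Gja1*, higher (13.6 ± 1.64 against 3.61 ± 0.813 CPM, log2 fold change 1.91, adjusted p = 0.000134) and pannexin 1, *Panx1*, lower (15.1 ± 1.76 against 21.6 ± 1.53 CPM, -0.53, adjusted p = 0.00657). Of 10 genes of the inflammasome that P2X7 can trigger, 2 were higher and 5 lower, with a list median of -0.17. *Il1b*, the cytokine it releases, was at 148 ± 79.4 CPM in F4/80hi and 1409 ± 471 CPM in F4/80int MAMs (-3.25, adjusted p = 0.000289), and the sensor *Nlrp3* at 98.3 ± 18.0 and 179 ± 36.2 CPM (-0.86, adjusted p = 0.00443), so these were lower where *P2rx7* was higher.

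Of 21 cAMP signaling genes, 8 were higher and 9 lower in F4/80hi MAMs, beside 54.9% called in either direction over all genes, with a list median of -0.08. The adenylyl cyclase *Adcy6* was lower (5.99 ± 2.28 against 51.1 ± 16.7 CPM, log2 fold change -3.09, adjusted p = 0.000104) and *Adcy9* higher (12.1 ± 4.08 against 4.38 ± 0.896 CPM, 1.47, adjusted p = 0.00248). The phosphodiesterases *Pde4b* (-1.88, adjusted p = 0.00235) and *Pde4d* (-1.16, adjusted p = 0.0116) were lower, and *Prkacb*, a catalytic subunit of protein kinase A, was higher (1.22, adjusted p = 8.88e-05).

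**Figure D4:**
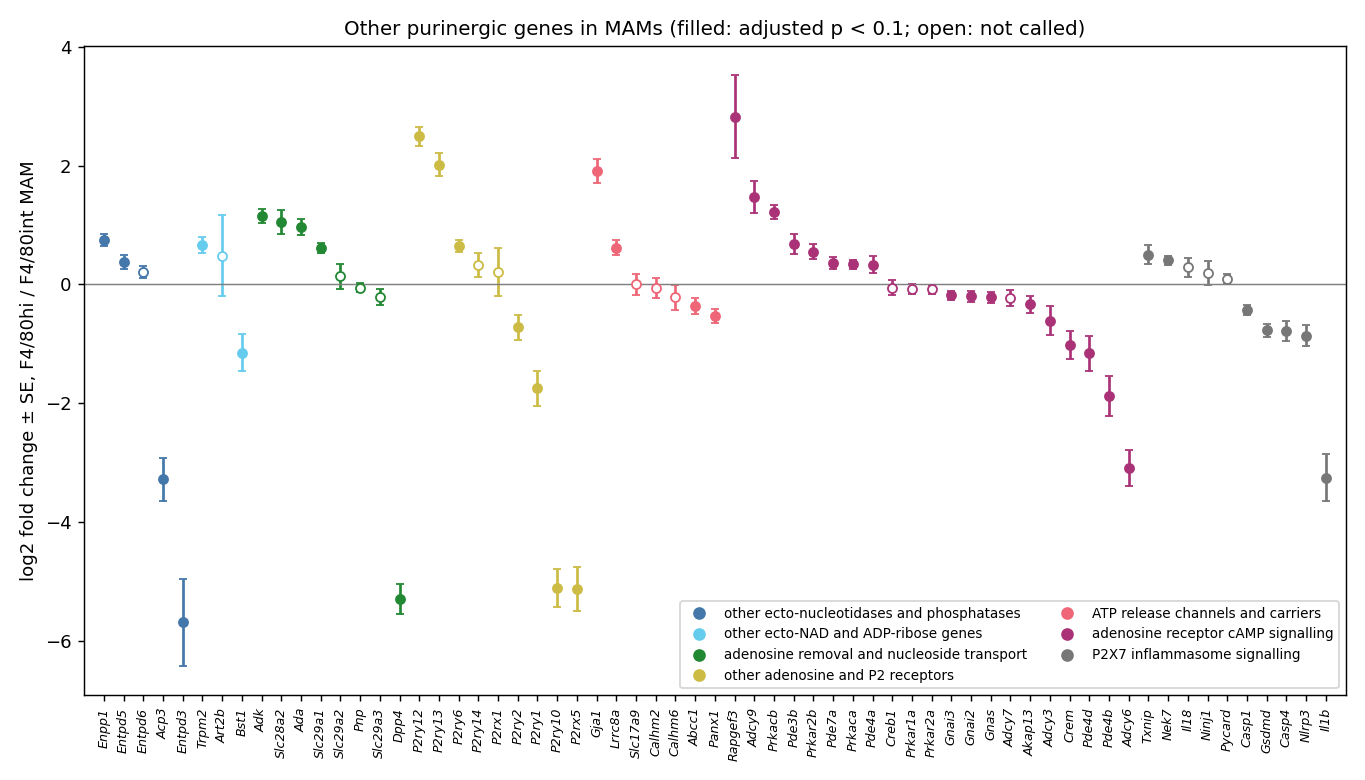
Log2 fold change (y axis) between F4/80hi and F4/80int MAMs of the other purinergic genes in the table (x axis), colored by list; whiskers are SEs and filled points have an adjusted p under 0.1. *P2ry12* and *P2ry13* lie above 2, whereas *P2rx5*, *P2ry10* and *Dpp4* lie below -5.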

How the data were processed

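RNA-seq libraries of sorted lymphocytes (12) and MAMs (6) were analyzed, grouped by the labels, with 3 libraries per population. For the lymphocytes, the authors trimmed reads with trim-galore and deposited estimated counts per gene from Salmon 1.5.0 and GENCODE transcripts of GRCm39. For the MAMs, the labels name Salmon 1.10.0, and the deposited estimated counts cover 13759 genes with a total of at least 37. Whether counting used the strand is not given in the sources used here. Both tables held whole numbers.

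Names and positions came from GENCODE vM39, which named 53700 of 54309 and 13726 of 13759 IDs. Genes were filtered with filterByExpr, leaving 13594 lymphocyte and 13759 MAM genes, scaled by TMM and compared with edgeR 4.0.16 (quasi-likelihood test, R 4.3.3), in 1 fit per table. P-values were Benjamini-Hochberg adjusted over all genes tested, and genes under 0.1 were called. The SE is the absolute log2 fold change divided by the square root of F. Per the study, the lymphocytes came from 3 independent sorts of pooled mice, and p-values cover the spread between these pools. For the MAMs, whether libraries came from separate animals is not given in the sources used here. Comparisons share MFL NK or LM CD49a+ NK libraries.

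All 8 members are named. Other purinergic genes were named if called, at most 3 per list, comparison and direction by size of change, with a mean of at least 1 CPM. An exception was the list of adenosine removal and transport, whose 4 genes higher in F4/80hi MAMs were all named. Members, lists and motifs were chosen with earlier results of these data known. Alternatives were DESeq2 1.42.0 (size factors and Wald test), limma 3.58.1 (voom with sample weights), no filter on low counts, a replicate block, fits of the compared populations alone and leaving out each library. The code was tested on simulated data. Intervals and limits cover counting error only.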

Additional observations from a re-analysis of the deposited data

Results flagged for a closer look

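The difference between CD49a+ and CD49a- cells differed between LM and MFL for 2 of the 51 other purinergic genes tested. This was by the interaction term of edgeR's quasi-likelihood test, for which 1.03% of all genes were called. *Slc28a2* had an interaction of -2.63 on the log2 scale (SE 0.48, adjusted p = 0.0148). It was at 36.8 ± 20.1 CPM (SD, n = 3) in LM CD49a+ and 139 ± 17.8 in LM CD49a- NK cells, and at 182 ± 20.2 in MFL ILC1 and 111 ± 19.1 in MFL NK cells. *Pde7a* had an interaction of -2.05 (SE 0.33, adjusted p = 0.00510). It was at 91.4 ± 17.5 CPM in LM CD49a+ and 153 ± 11.5 in LM CD49a- NK cells, and at 303 ± 68.5 in MFL ILC1 and 123 ± 12.9 in MFL NK cells. Both calls held in all 17 alternatives. As stated above, reads of *Slc28a2* could be split with those of its near-identical copy. LM CD49a+ NK cells carry CD49b and MFL ILC1 do not, so the site and the cell population cannot be told apart in this term.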

How the results depend on the processing

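Of the fold changes of members and other called purinergic genes under the alternatives, 1426 kept their direction and side of the threshold, 112 lost a call, 18 gained one and 16 changed direction. Of the counts of called genes or members, 163 stayed within 1.5 times the reported one and 73 did not. All 8 MAM members kept their direction, and 7 to 8 were called with 1 library left out. The cause of a changed call was not tested.

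Between the LM NK populations (19 genes called), the count was 200 without the filter on low counts, 543 by DESeq2's Wald test, 0 by limma-voom and 3 in a fit of those populations alone. Members called, 0 in the report, were 1 without the filter (*P2rx7*) and 1 by DESeq2 (*Nt5e*). For LM CD49a+ against MFL NK cells (88 genes) the counts were 371, 365 and 307 without the filter, by DESeq2 and by limma-voom. For LM CD49a- against MFL NK cells (10 genes) they were 158, 161 and 104, and 3 in a fit of those populations alone. For MFL ILC1 against MFL NK cells (416 genes) DESeq2 gave 667, limma-voom 2645, with 6 members called, and the fit of those populations alone 1228. For LM CD49a+ NK cells against MFL ILC1 (486 genes) the counts were 774 without the filter and 1010 by DESeq2, each with 3 members called, and 935 by limma-voom, with 5. For the interaction (140 genes) they were 264 without the filter and 349 by DESeq2.

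With 1 library left out, the genes called ranged, in the order above, from 5 to 267, 26 to 168, 1 to 110, 268 to 562, 257 to 708 and 75 to 256, and from 6550 to 7234 in MAMs. Members called ranged from 0 to 1 for LM CD49a+ against MFL NK cells, from 1 to 2 for MFL ILC1 against MFL NK cells and from 1 to 2 for LM CD49a+ NK cells against MFL ILC1, and were 0 in the other lymphocyte comparisons.

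Changes of direction were limited to differences that had not passed the test. *Cd38* became -0.0791 between the LM NK populations, -0.21 for LM CD49a+ and -0.13 for LM CD49a- against MFL NK cells by limma-voom, and the *Adora2a* interaction -0.21. With 1 library left out, *P2rx4* ranged from -7.53 to 1.12 and *Cd38* from -0.54 to 0.98 between the LM NK populations, and *Cd38* from -0.34 to 1.16 for LM CD49a+ against MFL NK cells. For LM CD49a- against MFL NK cells, *Entpd1* ranged from -0.54 to 0.41, *Adora2a* from -0.16 to 0.59, *P2rx7* from -5.56 to 2.76 and *Cd38* from -0.19 to 0.51. The *Adora2a* interaction ranged from -0.0958 to 0.76.

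The lymphocytes came from 3 sorts, but the sources used here do not tie a replicate number to a sort, so whether the numbers pair the libraries is unknown. Deviations of same-numbered libraries correlated at -0.0452 to 0.0981 in the lymphocytes and -0.0145 to 0.172 in MAMs. Set against the 3 libraries of each other population, a library correlated best with its own number in 21 of 36 cases in the lymphocytes. In MAMs it did so in 2 of 6 cases. With the replicate block the genes called were 24, 101, 15, 445, 484, 127 and 7512, in the order above with MAMs last, the members called were 0, 1, 0, 2, 1, 0 and 8, and *Entpd1* became -0.0690 for LM CD49a- against MFL NK cells. Low counts limit *Adora2b* and *Adora3* in the lymphocytes, which could not be tested. They also limit the fold changes of *P2rx7* and *P2rx4*, whose low groups held 0 counts in some libraries. LM lymphocyte libraries held 9608 to 12601 genes with at least 10 counts, and MFL libraries 11651 to 13218. Replicates correlated at 0.755 to 0.820 in LM lymphocytes and at 0.856 to 0.963 in MFL. *P2rx4* had 67 and 28 counts in the LM libraries with 12601 and 12093 such genes. It had 6, 0, 0 and 0 in those with 9885, 9608, 10719 and 10511. The part of this in the levels of the members was not tested.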
